A study of Mus musculus with 12 samples.

Results

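Polycomb repressive complex 2 (PRC2), the enzyme complex that methylates lysine 27 of histone H3, was followed here through the mRNAs of 10 of its genes. These were every gene of a list made up of the catalytic subunits Ezh1 and Ezh2, the core subunits Suz12, Eed, Rbbp4, and Rbbp7, and the accessory subunits Jarid2, Aebp2, Mtf2, and Phf19. The 10 genes were taken by symbol from the 55291 genes of the count table, and all 10 passed the filter on low counts that left 15825 genes for testing. RNA-Seq was performed on Lin-cKit+ (LK) bone marrow cells, a bead-sorted fraction holding hematopoietic stem and progenitor cells, of 12-month-old C57BL/6 mice, with 3 mice in each of 4 genotypes and 1 library per mouse. WT mice carried neither change. Asxl1Y588XTg mice carried a transgene for a truncated ASXL1 protein in addition to their own Asxl1 alleles, Kdm6bΔ/+ mice had lost 1 allele of Kdm6b, which codes for an H3K27 demethylase, and Asxl1Y588XTg;Kdm6bΔ/+ mice carried both changes. The Kdm6b allele was deleted with the interferon-inducible Mx1Cre, which acts in blood cells and in other interferon-responsive tissues, after injection of pI:pC. Whether the WT and Asxl1Y588XTg mice of these libraries carried Mx1Cre or received pI:pC is not given in the sources used here.

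PRC2 places the mono-, di-, and trimethyl marks on H3K27, and the trimethyl mark is bound by Polycomb Cbx proteins and is associated with silenced developmental genes. EZH1 and EZH2 are alternative catalytic subunits. EZH2 is the more active methyltransferase and is abundant in dividing cells, whereas EZH1 is retained in cells that divide little, and both are needed in different settings for the maintenance of blood stem cells. Each enzyme works only when bound to SUZ12 and EED, and JARID2 with AEBP2 or, alternatively, one of the Polycomb-like proteins PHF1, MTF2, and PHF19 guides the complex to chromatin. KDM6B and KDM6A remove the methyl groups that PRC2 adds. The question was whether the supply of PRC2 mRNA differed among the genotypes.

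The promoters of 4 members are shown because they carry, or in the case of Ezh1 lack, a word recognized by E2F factors, which drive genes of dividing cells. Each is a RefSeq sequence of the GRCm38.p6 assembly that runs from 230 bases before the annotated start to 20 bases after it, written 5′ to 3′ on the strand of the gene, with an E2F word in capitals.
Ezh1 (chr11:101226444-101226693, minus strand): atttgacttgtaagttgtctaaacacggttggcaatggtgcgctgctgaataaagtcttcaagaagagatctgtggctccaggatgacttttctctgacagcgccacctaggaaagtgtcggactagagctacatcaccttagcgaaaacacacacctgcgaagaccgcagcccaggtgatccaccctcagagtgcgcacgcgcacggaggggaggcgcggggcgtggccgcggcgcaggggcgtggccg
Ezh2 (chr6:47595011-47595260, minus strand): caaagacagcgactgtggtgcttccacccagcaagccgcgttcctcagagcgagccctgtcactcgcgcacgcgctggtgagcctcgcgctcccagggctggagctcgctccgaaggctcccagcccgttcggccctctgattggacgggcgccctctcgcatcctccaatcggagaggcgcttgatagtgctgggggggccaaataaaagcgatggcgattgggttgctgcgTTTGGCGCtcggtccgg
Suz12 (chr11:79992876-79993125, plus strand): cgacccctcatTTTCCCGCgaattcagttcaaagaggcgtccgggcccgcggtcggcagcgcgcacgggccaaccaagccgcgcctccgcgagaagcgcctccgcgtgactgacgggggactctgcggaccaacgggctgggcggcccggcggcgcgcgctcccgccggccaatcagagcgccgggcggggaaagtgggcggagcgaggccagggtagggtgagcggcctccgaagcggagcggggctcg
Phf19 (chr2:34913957-34914206, minus strand): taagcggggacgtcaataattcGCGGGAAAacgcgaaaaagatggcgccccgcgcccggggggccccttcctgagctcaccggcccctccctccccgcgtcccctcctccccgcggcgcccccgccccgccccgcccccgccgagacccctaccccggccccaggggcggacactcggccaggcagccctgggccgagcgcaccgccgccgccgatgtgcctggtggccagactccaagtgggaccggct

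The words searched, on both strands, were TTTCCCGC, TTTGGCGC, TTTCGCGC, and TTTGCCGC, and none of the matches overlapped another. In the windows from 250 bases before to 50 bases after the start, Ezh2 held its word at base 4 after the start, Suz12 at base 219 before it, and Phf19, on the opposite strand, at base 208 before it. The other 7 members, Ezh1 among them, held none. At least 1 such word was present in 2.26% of all 32851 windows of this length and in 2.6% of the 27025 genes with a window. Every word searched holds a CpG, and these shares were not matched for CpG content. The printed stretches of Ezh2, Suz12, and Phf19 hold 25, 39, and 31 CpG, and that of Ezh1 holds 19. The median over all windows, cut to the same stretch, is 6. A match describes the letters in these windows, and no binding was measured here.

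LK libraries held 14451522 to 23482563 counts, with a median of 17125384.5. The defining gene of the sort, Kit, was at 5764 to 7759 normalized counts in the 12 libraries, where a normalized count is the count divided by the scaled size of its library and multiplied by the mean library size. Genes of mature neutrophils were also abundant. The summed normalized counts of the 8 neutrophil genes on the list (Ly6g, S100a8, S100a9, Ltf, Camp, Ngp, Retnlg, and Mmp8) were 857724 to 1319330, and those of the 6 LK progenitor genes (Kit, Cd34, Myb, Gata2, Runx1, and Mpo) were 177458 to 247720. None of the 8 neutrophil genes passed the test in any comparison. Transcripts of the Y chromosome were present in 0 of 3 WT, 2 of 3 Kdm6bΔ/+, 1 of 3 Asxl1Y588XTg, and 3 of 3 Asxl1Y588XTg;Kdm6bΔ/+ libraries. Fewer cells of a type and less RNA per cell cannot be told apart in these bulk libraries.

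Kdm6b itself was lower with the deletion, which bears on the labels. The normalized counts were 2142, 2372, and 1869 in WT, 1622, 1529, and 1346 in Kdm6bΔ/+, 2270, 2303, and 2187 in Asxl1Y588XTg, and 1649, 1873, and 1909 in Asxl1Y588XTg;Kdm6bΔ/+ libraries. Over both Asxl1 genotypes the log2 change was -0.41 ± 0.07 (SE, 6 libraries against 6), with an adjusted p of 0.0129 in the quasi-likelihood test of edgeR, adjusted over all tested genes by the method of Benjamini and Hochberg. Within each pair of genotypes Kdm6b did not pass this test. Most libraries with the deletion and few without it held Y-linked transcripts, so sex is not balanced in the comparison over both Asxl1 genotypes. The Asxl1 gene was at 2545 to 3244 normalized counts in all libraries, and the counts of the whole gene do not separate the transgene from the native alleles.

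All 10 members were well expressed in LK cells, and their levels spanned a wide range. Levels of different genes were compared as CPM, the count as a share of the scaled library size, per kilobase of annotated exon. Rbbp7 and Rbbp4, which code for the histone-binding WD40 subunits that PRC2 shares with other chromatin complexes, stood at the top, with 72.6 ± 3.97 and 51.5 ± 3.89 CPM per kilobase (SD, n = 12 libraries). Suz12, the scaffold on which the complex assembles, followed at 48.9 ± 3.61. Ezh2 was at 24.3 ± 1.67 CPM per kilobase and Ezh1 at 4.396 ± 0.50, the lowest level of the list, so that Ezh2 made up 80.6% to 88.3% of the per-kilobase sum of Ezh1 and Ezh2 in the 12 libraries.

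Eed, whose protein binds the trimethyl mark and stimulates the enzyme, was at 14.97 ± 1.24 CPM per kilobase. Among the accessory subunits, Mtf2 was at 15.8 ± 1.35, Jarid2 at 13.5 ± 0.56, Aebp2 at 8.96 ± 0.50, and Phf19 at 4.76 ± 0.34 CPM per kilobase. The levels of neighbors in this order overlapped between Rbbp4 and Suz12, Mtf2 and Eed, Eed and Jarid2, and Phf19 and Ezh1, and the other 5 pairs of neighbors were separate over the 12 libraries. Jarid2 and Aebp2, whose products belong to the form of the complex called PRC2.2, together made up 47.7% to 52.0% of the per-kilobase sum of the accessory genes Jarid2, Aebp2, Mtf2, Phf19, and Phf1 in each library. Epop, Lcor, and Lcorl, taken up below, are not in this sum. The share depends on the genes summed and on the gene lengths used.

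**Figure D1:**
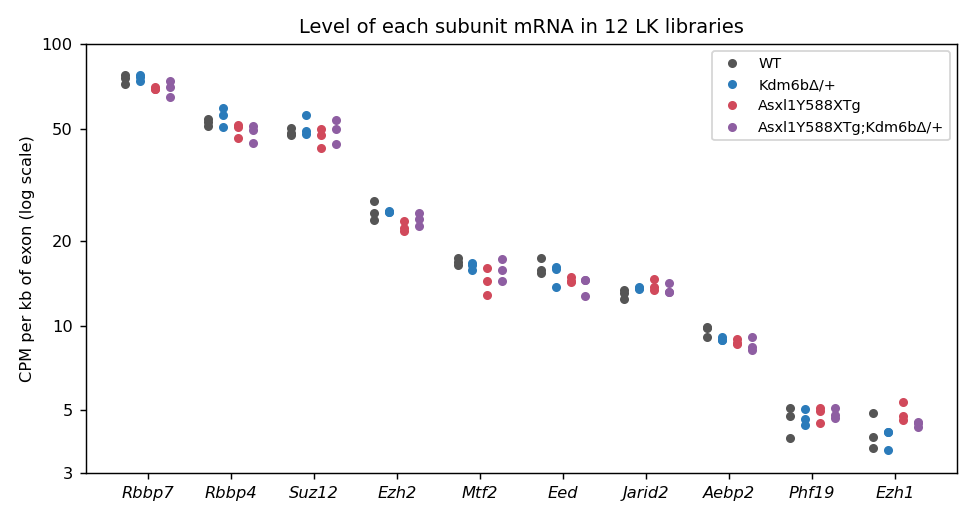
CPM per kilobase of annotated exon (log axis) of the 10 PRC2 members, with 1 point per library and the 4 genotypes in separate colors. Mean levels run from 72.6 for Rbbp7 to 4.396 for Ezh1, and the points of the 4 genotypes lie together for each gene.

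The order by level rested in part on the gene length used. With the longest annotated coding transcript of each gene in place of all its exon bases, a setting chosen after seeing the data, Rbbp4 was first at 102 and Rbbp7 next at 94.1 CPM per kilobase, Ezh2 moved above Suz12 at 58.3, and Phf19, at 6.41, was below Ezh1, at 7.77. Reads of some members could also be shared with other genes. Of the 50-base words in its annotated transcripts, the length of a read, 17.2% for Rbbp4 and 11.2% for Rbbp7 were also found in transcripts of other genes (Gm26722, Sync, Gm4800, and Gm7200 for Rbbp4, and Txlng and Gm6382 for Rbbp7), whereas the share was at most 5.82% for the other 8 members. Words were matched on both strands, and Gm26722 and Sync overlap Rbbp4, and Txlng overlaps Rbbp7, on the opposite strand. These shares count distinct words and not reads, so they do not measure how uncertain the levels of Rbbp4 and Rbbp7 are.

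The members varied little from library to library. The SD of the log2 level over the 12 libraries was 0.06 for Jarid2, lower than for all but 0.866% of the tested genes, and 0.08 for both Aebp2 and Rbbp7, at percentiles 4.59 and 4.83. It was largest for Ezh1, at 0.16 and percentile 37.9, and the other 6 members lay between percentiles 12.1 and 24.9. In level, the members stood between percentile 57.6 (Phf19) and percentile 98.5 (Rbbp4) of the tested genes. The SD percentiles were taken over all tested genes and not among genes of like level, so they do not separate low spread from high level.

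None of the 10 members passed the test in any of 8 comparisons, which were the 5 pairs of genotypes, the effect of the transgene over both Kdm6b genotypes, the effect of the Kdm6b deletion over both Asxl1 genotypes, and their interaction. A member passed with an adjusted p under 0.05 by edgeR's quasi-likelihood test, at any fold, and DESeq2 passed none of the 10 either. The adjusted p of the 80 tests ran from 0.203 to 0.9999. Of all tested genes, 1.64% passed this rule in Asxl1Y588XTg against WT, 0.0948% in Kdm6bΔ/+ against WT, 2.09% in Asxl1Y588XTg;Kdm6bΔ/+ against Asxl1Y588XTg, 0.101% in Asxl1Y588XTg;Kdm6bΔ/+ against Kdm6bΔ/+, 0.227% in Asxl1Y588XTg;Kdm6bΔ/+ against WT, 2.25% for the transgene over both Kdm6b genotypes, 0.43% for the deletion over both Asxl1 genotypes, and 0.0126% for the interaction. At these shares few or no calls among 10 genes are the background, so the count of 0 says little by itself.

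The confidence intervals say more. All 80 of the 95% intervals lay inside a 1.5-fold change in either direction, and 61 of them lay inside a 1.25-fold change. The lowest bound was a log2 change of -0.44, or 0.735-fold, for Mtf2 in Asxl1Y588XTg against WT, and the highest was 0.52, or 1.43-fold, for Ezh1 in the same comparison. Changes of 1.5-fold or more were thus outside the interval of each member in each comparison, while 19 of the 80 intervals reached beyond a 1.25-fold change. Each interval holds at 95% by itself, with no adjustment over the 80, and all come from the main fit. Without WT replicate 2, the log2 change of Ezh1 in Asxl1Y588XTg against WT was 0.35, against 0.23 in the main fit.

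**Figure D2:**
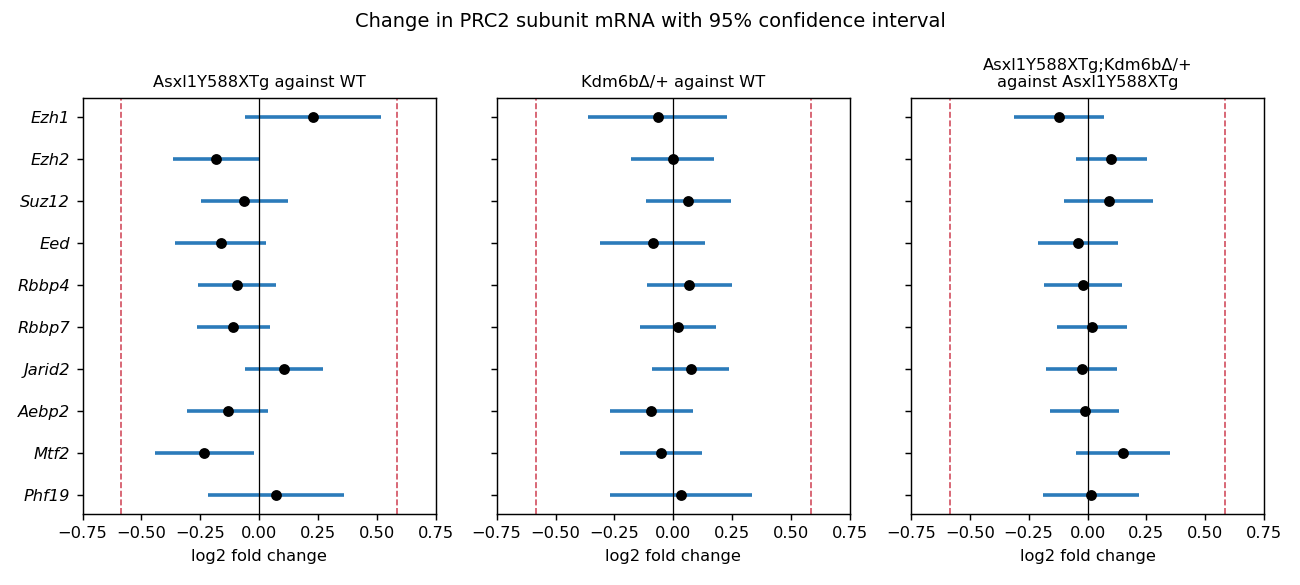
Log2 fold change of each PRC2 member (black point) with its 95% confidence interval (blue bar) in 3 comparisons of 3 libraries against 3, with dashed red lines at a 1.5-fold change. The intervals stay inside the dashed lines, and their widest bounds are -0.44 for Mtf2 and 0.52 for Ezh1, both in Asxl1Y588XTg against WT.

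Asxl1Y588XTg against WT gave the widest differences among the 5 pairs. Ezh2 and Ezh1 pointed in opposite directions there. Ezh2 was at 3239, 2795, and 2945 normalized counts in WT and at 2613, 2551, and 2757 in Asxl1Y588XTg libraries. The groups did not overlap, and the log2 change was -0.18 ± 0.08 (SE, 3 against 3), with an adjusted p of 0.534 by edgeR. Ezh1 was at 480, 639, and 525 in WT and at 699, 605, and 626 in Asxl1Y588XTg libraries. Its groups overlapped through WT replicate 2, and the log2 change was 0.23 ± 0.13, with an adjusted p of 0.681 by edgeR.

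Among the core subunits in the same comparison, Eed was at 1037, 1063, and 1173 normalized counts in WT and at 971, 999, and 958 in Asxl1Y588XTg libraries, all 3 below WT, for a log2 change of -0.16 ± 0.09. Rbbp7 was at 3861, 3689, and 3952 in WT and at 3538, 3612, and 3525 in Asxl1Y588XTg libraries, again all 3 below WT, for a log2 change of -0.11 ± 0.07. Suz12, at 3702 to 4862 over all 12 libraries, and Rbbp4, at 6856 to 9079, overlapped between the genotypes, with log2 changes of -0.06 ± 0.08 and -0.09 ± 0.07. None of these 4 passed the test, and the lowest adjusted p among them was 0.665 by edgeR.

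Of the accessory subunits, Mtf2, a Polycomb-like protein that binds unmethylated CpG-rich DNA, had the largest fitted change of all members. It was at 1692, 1643, and 1744 normalized counts in WT and at 1288, 1439, and 1598 in Asxl1Y588XTg libraries, all 3 below WT but far apart from each other. The log2 change was -0.23 ± 0.09, with an adjusted p of 0.437 by edgeR. Aebp2, a zinc-finger cofactor of PRC2.2, was at 1577, 1693, and 1706 in WT and at 1501, 1492, and 1548 in Asxl1Y588XTg libraries, below WT in all 3. Jarid2, which recruits PRC2 and is itself methylated by it, was at 2120, 2225, and 2276 in WT and at 2349, 2498, and 2292 in Asxl1Y588XTg libraries, above WT in all 3. Neither Aebp2 nor Jarid2 passed the test, with log2 changes of -0.13 ± 0.08 and 0.11 ± 0.07. Phf19, another Polycomb-like subunit, was at 353 to 453 over all 12 libraries and overlapped between the genotypes at a log2 change of 0.07 ± 0.13.

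By separation alone, 6 of the 10 members did not overlap between Asxl1Y588XTg and WT, 5 of them below WT (Ezh2, Eed, Rbbp7, Aebp2, and Mtf2) and Jarid2 above it. The background was 15.7% of all tested genes, with 5.21% below and 10.5% above. At an unadjusted p under 0.05, 2 of 10 members passed (Ezh2 and Mtf2), beside 9.35% of all tested genes. The median log2 change was -0.10 over the members and -0.01 over all tested genes.

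**Figure D3:**
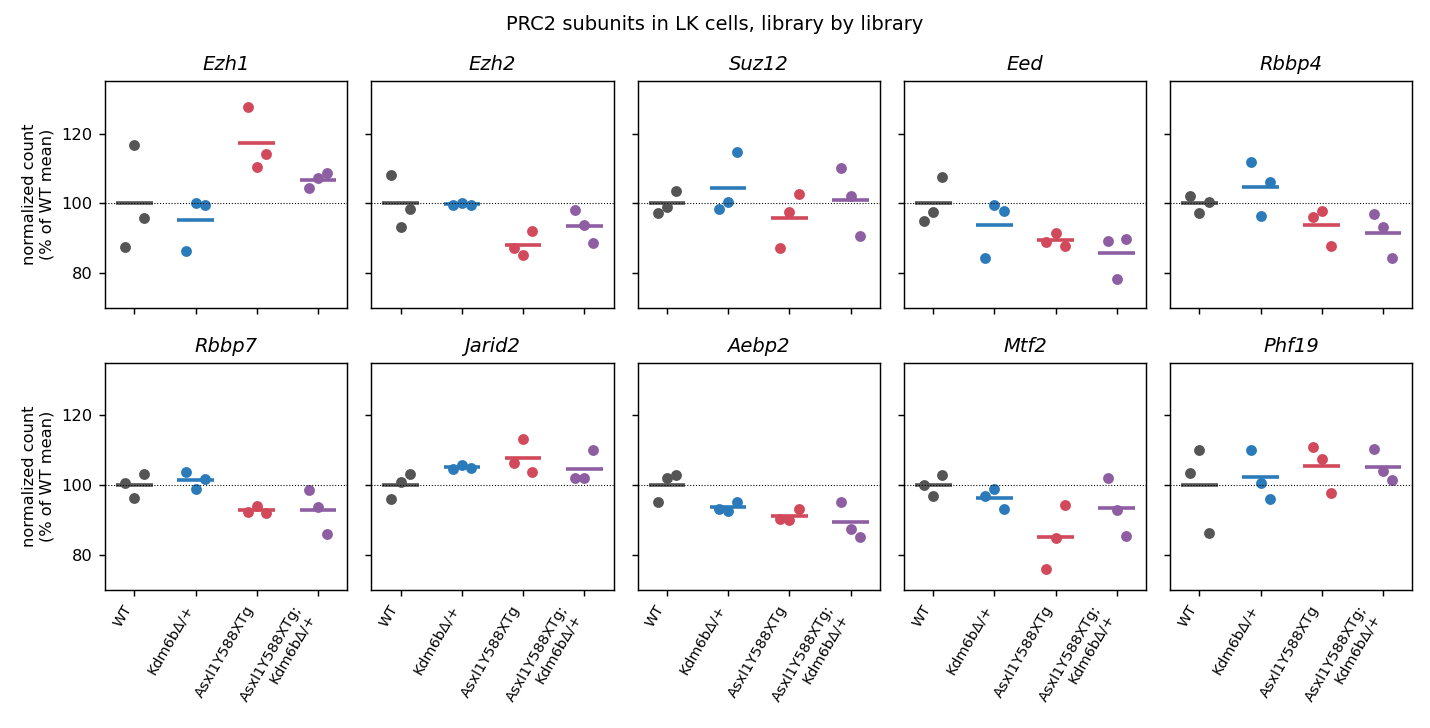
Normalized count of each PRC2 member in each library, as a percent of the WT mean of that gene, with 1 point per library (3 per genotype) and a bar at each genotype's mean. Ezh2, Eed, Rbbp7, Aebp2, and Mtf2 lie below all WT points in the 3 Asxl1Y588XTg libraries, Jarid2 lies above them, and the Ezh1 points of WT and Asxl1Y588XTg overlap.

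The Kdm6b deletion on the WT background left the members close to WT. Ezh2 was at 2977, 3001, and 2982 normalized counts in Kdm6bΔ/+ libraries, within the WT range, for a log2 change of -0.00 ± 0.08. Ezh1 was at 474, 548, and 546, for a log2 change of -0.07 ± 0.14. The largest fitted change in this comparison was -0.09 ± 0.08, for Aebp2, which was at 1544, 1535, and 1581. Jarid2 was the 1 member of 10 without overlap, at 2308, 2337, and 2317 against 2120 to 2276 in WT, beside 8.93% of all tested genes, and its log2 change was 0.07 ± 0.07 with an adjusted p of 0.9999 by edgeR. No member had an unadjusted p under 0.05, where 3.49% of all tested genes had one.

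The Kdm6b deletion on the transgene background was read from Asxl1Y588XTg;Kdm6bΔ/+ against Asxl1Y588XTg. Ezh1 was at 572, 588, and 596 normalized counts with the deletion against 605 to 699 without it. It was the 1 member of 10 without overlap, beside 21.2% of all tested genes, and its log2 change was -0.12 ± 0.09 with an adjusted p of 0.552 by edgeR. Ezh2 was at 2941, 2808, and 2653 and overlapped with the 2551 to 2757 of Asxl1Y588XTg, for a log2 change of 0.10 ± 0.07. Mtf2 was at 1726, 1573, and 1447 and had the largest fitted change, 0.15 ± 0.09 on the log2 scale, with an adjusted p of 0.465 by edgeR. No member had an unadjusted p under 0.05, beside 15.4% of all tested genes. This comparison and that of Asxl1Y588XTg with WT share the 3 Asxl1Y588XTg libraries, so opposite signs in them are not independent.

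Asxl1Y588XTg;Kdm6bΔ/+ was also set against the other control genotypes. Against Kdm6bΔ/+, 3 of 10 members did not overlap, Ezh1 above and Ezh2 and Rbbp7 below, beside 18.9% of all tested genes. Rbbp4 overlapped there but had the largest fitted change, at 7878, 7579, and 6856 normalized counts against 9079, 7821, and 8617 in Kdm6bΔ/+, for a log2 change of -0.19 ± 0.08 with an adjusted p of 0.363 by edgeR. It was the only member with an unadjusted p under 0.05 in this comparison, beside 12.2% of all tested genes. Against WT, Eed, at 975, 857, and 981, and Rbbp4 lay below all WT libraries, 2 of 10 members beside 13.5% of all tested genes. Their log2 changes were -0.21 ± 0.10 and -0.11 ± 0.08, with adjusted p of 0.743 and 0.823 by edgeR. No member had an unadjusted p under 0.05 against WT, beside 6.79% of all tested genes. All 3 Asxl1Y588XTg;Kdm6bΔ/+ libraries and none of the WT libraries held Y-linked transcripts, so sex and genotype cannot be told apart in this last pair, also for Rbbp7, which lies on the X chromosome.

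With the 6 libraries that carry the transgene set against the 6 without it, allowing for the Kdm6b genotype, 6 of 10 members had an unadjusted p under 0.05, beside 13.7% of all tested genes. Ezh1 had a log2 change of 0.20 ± 0.08. Ezh2 and Rbbp4 were at -0.14 ± 0.05, Eed and Mtf2 at -0.14 ± 0.06, and Rbbp7 at -0.12 ± 0.05. None of the 6 passed the adjustment over all tested genes, and the lowest adjusted p was 0.203, for Ezh2, by edgeR. In these pooled groups every member overlapped, beside 1.69% of all tested genes that did not. The transgene-free libraries hold 2 and the transgene libraries 4 with Y-linked transcripts.

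The deletion effect over both Asxl1 genotypes was smaller. Its fitted changes ran from -0.10 (Ezh1) to 0.07 (Suz12) on the log2 scale, no member had an unadjusted p under 0.05, beside 9.81% of all tested genes, and all 10 of the 95% intervals lay inside a 1.25-fold change. Most libraries with the deletion and few without it held Y-linked transcripts, so sex is not balanced here. With a term for Y-linked transcripts Ezh1 moved to -0.02, and Rbbp4 moved from 0.02 to -0.07. For the interaction, which is the deletion effect with the transgene minus that without it, the largest value was 0.19 ± 0.12, for Mtf2, with an adjusted p of 0.798 by edgeR. No member had an unadjusted p under 0.05 for the interaction, beside 6.87% of all tested genes, and its intervals ran from -0.41 to 0.44.

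The opposite signs of Ezh1 and Ezh2 were put into 1 value per library, the ratio of Ezh2 to Ezh1 counts, which needs no library scaling. The ratio was 6.74, 4.37, and 5.61 in WT, 6.28, 5.47, and 5.46 in Kdm6bΔ/+, 3.74, 4.22, and 4.40 in Asxl1Y588XTg, and 5.14, 4.78, and 4.45 in Asxl1Y588XTg;Kdm6bΔ/+ libraries. The means were 5.57 ± 1.18, 5.74 ± 0.47, 4.12 ± 0.34, and 4.79 ± 0.35 (SD, n = 3 each). All 6 transgene libraries were below the Kdm6bΔ/+ libraries, but WT replicate 2 lay among them.

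Averaged on the log2 scale, the ratio with the transgene was 0.791 of that without it, a difference of -0.34 between the 6 libraries with and the 6 without it. An exact two-sided permutation test within the Kdm6b genotypes gave p = 0.01 over 400 arrangements, of which the smallest possible p is 0.005, and 0.04 after adjustment over the 4 ratio tests run. This ratio was chosen with earlier results of these data known, and the adjusted p was 0.08 to 0.14 when Kdm6bΔ/+ replicate 1 or any 1 of the 3 Asxl1Y588XTg libraries was left out. Libraries with the transgene also held Y-linked transcripts more often than those without it. For the deletion the difference was 0.14, with an exact permutation p of 0.225 (0.45 adjusted). The ratio of Rbbp7 to Rbbp4, the interchangeable histone-binding subunits, was 0.472 ± 0.01 in WT, 0.459 ± 0.02 in Kdm6bΔ/+, 0.468 ± 0.02 in Asxl1Y588XTg, and 0.479 ± 0.004 in Asxl1Y588XTg;Kdm6bΔ/+ libraries (SD, n = 3 each). The exact permutation p for this ratio was 0.485 for the transgene and 0.88 for the deletion.

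**Figure D4:**
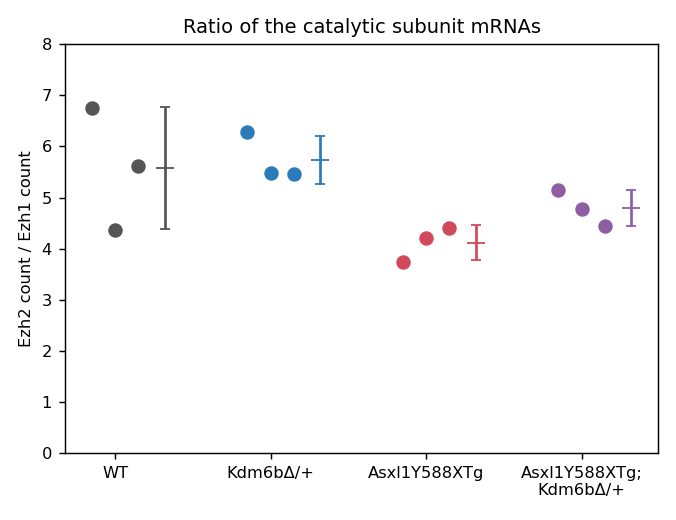
Ratio of the Ezh2 count to the Ezh1 count in each of the 12 libraries, with 3 points per genotype and the mean ± SD beside them, on an axis that starts at 0. The Asxl1Y588XTg libraries lie between 3.74 and 4.40, and the WT libraries between 4.37 and 6.74, so the groups overlap at 1 WT library.

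Over the 12 libraries, Ezh1 and Ezh2 had a Pearson r of -0.81 on log2 CPM, and of -0.59 after the mean of each genotype was removed. Of the 45 pairs of members, this r was the lowest, and Rbbp4 with Rbbp7 had the highest, at 0.89. Ezh2 and Jarid2 had an r of -0.76, and of -0.79 within the genotypes. These values describe 12 libraries that share genotypes and cell makeup. Among 9893 genes that averaged 100 or more normalized counts, the profiles most like that of Ezh1 were those of Gabbr1 (r of 0.92), 4931406C07Rik (0.92), Bin2 (0.91), Trim30b (0.91), and Hacd4 (0.90). Those most like Ezh2 were the profiles of Mkln1 (0.91), Magohb (0.91), Spdl1 (0.90), Cops3 (0.88), and Rfwd3 (0.88). With the genotype means removed, r ran from 0.81 (Hacd4) to 0.95 (4931406C07Rik) for Ezh1. For Ezh2 it ran from 0.68 (Rfwd3) to 0.92 (Mkln1). These profiles were picked as the highest among 9893 genes over 12 libraries, so high values are in part due to the choice, and they were not tested.

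Cell cycle and stem cell genes were set beside the members. Of 20 cell cycle genes, 0 passed the edgeR test in any comparison. In Asxl1Y588XTg against WT 3 of them had an unadjusted p under 0.05, beside 9.35% of all tested genes. There 19 of the 20 had a log2 change below 0, and the exception, Mki67, was at 0.15 ± 0.19. The median of the 20 was -0.11, beside the -0.10 of the PRC2 members and the -0.01 of all tested genes. For the transgene over both Kdm6b genotypes 12 of the 20 had an unadjusted p under 0.05, beside 13.7% of all tested genes. The summed normalized counts of the 20 genes were 112714 to 117146 in WT, 118321 to 124126 in Kdm6bΔ/+, 104239 to 118731 in Asxl1Y588XTg, and 110848 to 114204 in Asxl1Y588XTg;Kdm6bΔ/+ libraries. None of these genes was at 0, and their part in the values of the PRC2 members was not tested.

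Of 11 hematopoietic stem cell genes, 9 were higher in Asxl1Y588XTg than in WT, beside 1.64% of all tested genes that passed in either direction. In Asxl1Y588XTg;Kdm6bΔ/+ against Asxl1Y588XTg 7 were lower, beside 2.09% of all tested genes. In the first comparison these were Procr, Hlf, Mecom, Slamf1, Meis1, Hoxb5, Fgd5, Ctnnal1, and Tek, with log2 changes from 1.26 (Meis1 and Hlf) to 4.30 (Hoxb5, at raw counts of 0 to 3 in WT). In the second they were Procr, Mecom, Slamf1, Meis1, Fgd5, Ctnnal1, and Tek, with log2 changes from -2.16 (Procr) to -0.80 (Ctnnal1). The list was made with earlier results of these data known, and Y-linked transcripts were not balanced in the second pair. Hoxb5 may have passed the filter on low counts only through the Asxl1Y588XTg libraries. The summed normalized counts of the 11 genes were 1735 to 2277 in WT, 1615 to 1880 in Kdm6bΔ/+, 4430 to 5407 in Asxl1Y588XTg, and 1829 to 2643 in Asxl1Y588XTg;Kdm6bΔ/+ libraries. Megakaryocyte genes, of which 5 of 6 listed were tested, summed to 1379 to 2643 in WT and 4372 to 11827 in Asxl1Y588XTg libraries, and none of the 5 passed the test in that pair. In 3 other comparisons 1 of the 5 passed. Ppbp passed in Asxl1Y588XTg;Kdm6bΔ/+ against WT, at a log2 change of 2.49 ± 0.36, beside 0.227% of all tested genes. Itga2b passed against Kdm6bΔ/+, at 0.68 ± 0.10, beside 0.101% of all tested genes. Vwf passed for the transgene over both Kdm6b genotypes, at 1.89 ± 0.30, beside 2.25% of all tested genes. Of 8 erythroid genes, Hbb-bt and Alas2 were lower in Asxl1Y588XTg;Kdm6bΔ/+ than in WT, at log2 changes of -1.11 ± 0.13 and -1.49 ± 0.20. The share of all tested genes that passed in this pair was 0.227%. Sex and genotype cannot be told apart in it, also for Ppbp and for Alas2, which lies on the X chromosome. The part of these cells in the values of the PRC2 members was not tested.

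The other accessory genes of PRC2 were low or did not pass the test. Of 5 such genes listed, 4 were in the table and were tested, and 0 passed in any of the 8 comparisons. Phf1, a further Polycomb-like gene, was at 65.3 to 180 normalized counts, below Phf19, and its log2 change in Asxl1Y588XTg against WT was 0.20 ± 0.26. Epop, whose product links PRC2 to elongin, was at 56.7, 115, and 147 in WT, at 204, 133, and 159 in Kdm6bΔ/+, at 220, 234, and 237 in Asxl1Y588XTg, and at 146, 162, and 168 in Asxl1Y588XTg;Kdm6bΔ/+ libraries. Asxl1Y588XTg was above both WT and Asxl1Y588XTg;Kdm6bΔ/+ for Epop, with log2 changes of 1.12 ± 0.30 against WT and -0.52 ± 0.13 for the latter against Asxl1Y588XTg, and adjusted p of 0.135 and 0.0653 by edgeR. Lcor and Lcorl, whose loci also code for the PRC2-associated PALI proteins, were at -0.08 ± 0.11 and -0.39 ± 0.12 in Asxl1Y588XTg against WT.

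Genes that act on or read the PRC2 mark were mostly without a call. Of the demethylases, Kdm6a was lower in Asxl1Y588XTg;Kdm6bΔ/+ than in WT, at 1293, 1303, and 1259 against 2060, 2256, and 2088 normalized counts, a log2 change of -0.72 ± 0.08 with an adjusted p of 0.00269 by edgeR. The Y-linked Uty, also on the demethylase list, passed as higher in the same pair, at a log2 change of 9.24. In this pair 0.227% of all tested genes passed. Kdm6a lies on the X chromosome, and every library with Y-linked transcripts, in whichever genotype, was at 1233 to 1334 and every library without them at 2060 to 2256. The term for Y-linked transcripts cannot be estimated within this pair. In a fit to all 12 libraries the log2 change was -0.73 without that term, with an edgeR adjusted p of 0.406, and 0.02 with it, so the call was lost in both. Of 5 Cbx genes whose products bind H3K27 trimethylation, Cbx6 was lower in Asxl1Y588XTg;Kdm6bΔ/+ than in Asxl1Y588XTg, at 820, 730, and 835 against 1105, 1109, and 1024, a log2 change of -0.42 ± 0.08 with an adjusted p of 0.0273 by edgeR. In this pair 2.09% of all tested genes passed. Y-linked transcripts were present in more of its Asxl1Y588XTg;Kdm6bΔ/+ than Asxl1Y588XTg libraries, so sex is not balanced there. The other 4 Cbx genes did not pass in any comparison. Of 4 ASXL and BAP1 genes, 3 were tested and none passed.

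Genes known as PRC2 targets were also followed, of which 13 of 22 listed were tested. In Asxl1Y588XTg against WT 4 of the 13 rose, beside 1.64% of all tested genes that passed in either direction. These were Meis1, Prdm16, Gata2, and Hoxb5. The authors named these 4 among the genes dysregulated in the same RNA-Seq, and the list was made with earlier results known. Their count is therefore no independent evidence about PRC2 targets. The log2 changes were 1.26 ± 0.13 for Meis1, 1.67 ± 0.32 for Prdm16, and 0.73 ± 0.13 for Gata2. Hoxb5 was at raw counts of 0, 1, and 3 in WT and 25, 29, and 27 in Asxl1Y588XTg libraries, and its fitted log2 change of 4.30 ± 0.86 rests on those low counts. Meis1 and Hoxb5 also stand on the stem cell list and Gata2 on the progenitor list, so these counts are not separate from those above. In Asxl1Y588XTg;Kdm6bΔ/+ against Asxl1Y588XTg 4 of the 13 fell, beside 2.09% of all tested genes that passed in either direction. Meis1, Prdm16, and Gata2 fell by 1.07 ± 0.11, 1.14 ± 0.15, and 1.02 ± 0.12 on the log2 scale, and Hoxb6, at raw counts of 3, 4, and 5 against 20, 19, and 17, fell by 2.34 ± 0.46. The median log2 change of the 13 targets was 0.73 in the first and -1.07 in the second comparison, beside -0.10 and 0.0014 for the 10 PRC2 members, and the difference between the lists was not tested. For the transgene over both Kdm6b genotypes 3 of the 13 targets rose and for the deletion over both Asxl1 genotypes 1 fell, while none passed the edgeR test in the other 3 pairs or for the interaction. The remaining 9 targets, among them Cdkn2a and Cdkn2b, were below the filter on low counts. That filter keeps a gene with enough counts in as few libraries as 1 genotype holds. Hoxb5 and Hoxb6 may have passed it only through the group where they are high. The calls and medians of the 13 targets therefore depend in part on the filter and are no separate support.

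**Figure D5:**
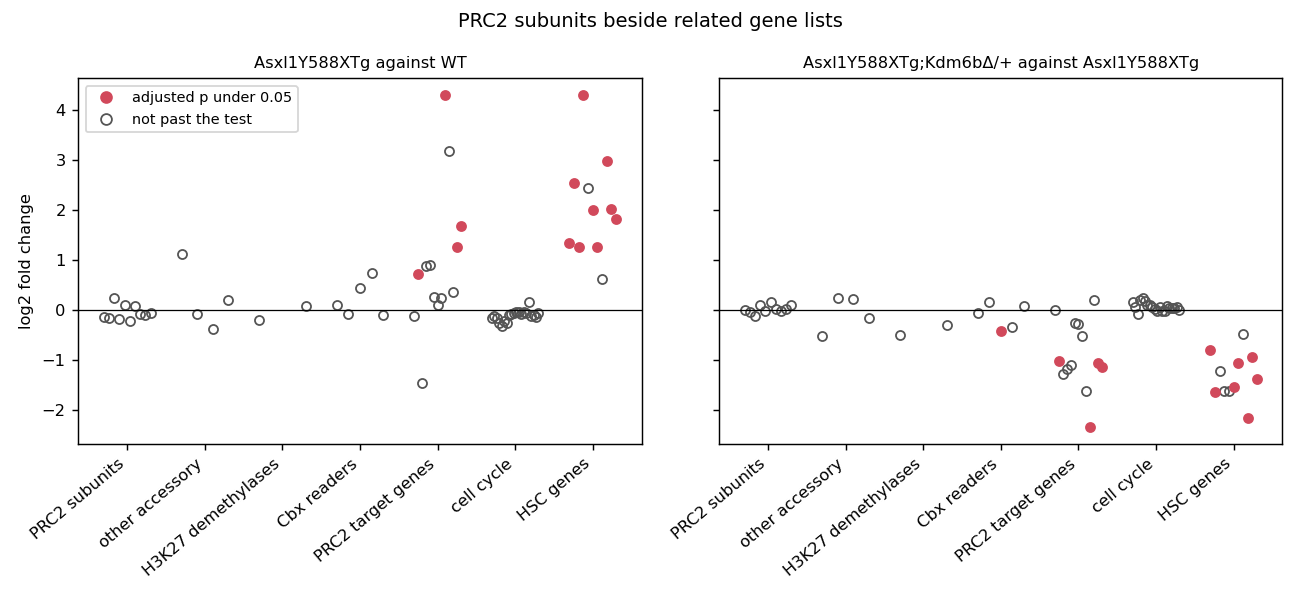
Log2 fold change of each tested gene of 7 lists in Asxl1Y588XTg against WT and in Asxl1Y588XTg;Kdm6bΔ/+ against Asxl1Y588XTg, with filled points for an adjusted p under 0.05 by edgeR and the Y-linked Uty left out. The 10 PRC2 members lie between -0.23 and 0.23, none filled. In the first comparison 4 of 13 target genes and 9 of 11 HSC genes are filled, beside 1.64% of all tested genes that passed.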

How the data were processed

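RNA-Seq reads of 50 bases were trimmed with Trimmomatic, aligned to mm10 with STAR, and counted per gene with HTSeq by the authors, who deposited raw counts for 55291 genes in 12 libraries. The annotation and counting strand are not given in the sources used here, and the labels and the methods name different library kits and sequencers. DESeq2 1.42.0, edgeR 4.0.16, and limma 3.58.1 were used under R 4.3.3. Genes were filtered with filterByExpr, leaving 15825, and libraries were scaled by TMM. Each pair of genotypes was fitted alone, and main effects and the interaction in all 12 libraries, with edgeR's robust quasi-likelihood model and Benjamini-Hochberg adjustment over all tested genes. SEs follow from the F statistic. The tests were tried on simulated data. Levels use exon bases of GENCODE vM21. Ratios were tested by exact permutation within the other factor, two-sided.

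The members, lists, tests, alternatives, and rule for named genes were chosen with earlier results of these data known. Named genes were all members, Phf1, Kdm6a, Kdm6b, Asxl1, Mki67, Kit, list genes that passed, and the 5 genes closest in profile to Ezh1 and to Ezh2. Other list genes, among them Epop, Lcor, and Lcorl, were named after their values were seen. Alternatives were DESeq2, RLE scaling, no filter, a mean count of at least 50, a replicate block, a term for Y-linked transcripts, all genotypes in 1 fit, and each library left out. A listed stem cell gene is not reported here and was left out of its list.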

Additional observations from a re-analysis of the deposited data

How the results depend on the processing

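The count of 0 of 10 members past the test was the same under each alternative run for the 8 comparisons, among them the replicate number as a block, which also gave 0 of 10 each time. Of 1190 refitted member values, 1184 moved by less than 1 SE and 6 by more, none passed, and the lowest adjusted p was 0.0823 (edgeR and DESeq2). Replicate numbers did not pair the libraries, as same-numbered libraries of different genotypes had residual correlations of -0.12 to 0.08. The block cannot change the difference of -0.34 in the Ezh2 to Ezh1 ratio with the transgene, because every genotype holds every replicate number. Leaving out 1 library gave differences of -0.42 to -0.26 for this ratio, and its adjusted p by exact permutation was above 0.05 in 4 of the 12. The Rbbp7 to Rbbp4 ratio differed by 0.0563 for the deletion with a term for Y-linked transcripts, against -0.004 without it. Kdm6a in Asxl1Y588XTg;Kdm6bΔ/+ against WT went from -0.72 to 0.0151 with that term in a fit to all 12 libraries, and to -0.73 in that fit without the term. Over all genes, those past adjusted p under 0.05 in Asxl1Y588XTg against WT numbered 260, 505 with DESeq2, 683 without a filter, 152 with a mean count of at least 50, 480 with all genotypes in 1 fit, 360 with the Y-linked term (in a fit to all 12 libraries), 104 with the replicate block, and 111 to 268 with 1 library left out. For Asxl1Y588XTg;Kdm6bΔ/+ against Asxl1Y588XTg they numbered 331, with 624, 1171, 192, 185, 51, 71, and 64 to 299 under the same settings in the same order, the lowest being 64 and 65 without Asxl1Y588XTg;Kdm6bΔ/+ replicates 1 and 2. For the transgene over both Kdm6b genotypes they numbered 356, with 695 by DESeq2, 1107 without a filter, 208 with a mean count of at least 50, 166 with the Y-linked term, 249 with the block, and 182 to 416 with 1 library left out. For the deletion over both Asxl1 genotypes 68 became 238, 650, 55, 8, 43, and 21 to 125 in that order, and for the interaction 2 became 70, 289, 0, 0, 2, and 0 to 10. The 3 remaining pairs, with 15 (Kdm6bΔ/+ against WT), 36 (Asxl1Y588XTg;Kdm6bΔ/+ against WT), and 16 (against Kdm6bΔ/+), became 41, 126, and 154 by DESeq2, 70, 220, and 349 without a filter, 6, 3, and 2 with the Y-linked term, 7, 14, and 3 with all genotypes in 1 fit, 22, 69, and 19 with the block, and 7 to 26, 14 to 60, and 5 to 41 with 1 library left out. The shares of all genes quoted beside the members move with these counts. Differences inside the intervals given for the members remain possible at this depth and with 3 mice per genotype.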
